A study of Homo sapiens with 9 samples.

Results

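The genes described here are 59 named protein-coding genes of the long arm of human chromosome 13, the set listed as raised in LM2 cells. They were selected on measured values of these same libraries, because chromosome 13 genes shifted upward together in LM2 against Par. Values of LM2 against Par are therefore given for these members as a description, with no test. All 59 were found among the 58884 genes of the count table, and 58 of them passed the filter on low counts that left 13055 genes. The other is UCHL3, a ubiquitin hydrolase.

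RNA-seq was done on 3 lines with 3 libraries each. Par is MDA-MB-231, an established claudin-low breast cancer cell line. LM2 and BrM2 are sub-populations of it, selected in mice for colonization of the lung and the brain respectively, and all were grown in the same medium (DMEM with 10% FBS, penicillin and streptomycin) with no treatment. Each metastatic group is 1 sub-population, so features of the organ and of the sub-population cannot be told apart. The libraries were poly(A)-selected and held 14371858 to 24511786 counts.

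Chromosome 13 is one of the gene-poor, AT-rich human chromosomes, and its long arm carries nearly all of its genes. Among them are the tumor suppressors RB1, which holds E2F transcription factors in check until cells enter S phase, and BRCA2, which acts in the repair of DNA breaks. The arm also encodes subunits of large complexes (MED4 and CDK8, EXOSC8 and DIS3, RFC3, INTS6, CDC16) whose other subunits lie mostly on other chromosomes. Cultured cancer cells often carry gains or losses of whole arms. The files used here measure RNA and not DNA copy number, and the part of gene dosage in the values below was not tested.

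Of all 59 members, 53 had a RefSeq promoter window of 300 bases near the annotated gene start (GRCh38.p14, 250 bases before and 50 after a start site). The windows printed here are those of BRCA2 and MBNL2, the members with the highest and the lowest log2 fold change in LM2 against Par, and capitals mark the bases from the annotated start site. The BRCA2 window is chr13:32315258-32315557 on the plus strand and 63.3% G or C. The MBNL2 window is chr13:97141584-97141883 on the plus strand and 48.7% G or C.
BRCA2: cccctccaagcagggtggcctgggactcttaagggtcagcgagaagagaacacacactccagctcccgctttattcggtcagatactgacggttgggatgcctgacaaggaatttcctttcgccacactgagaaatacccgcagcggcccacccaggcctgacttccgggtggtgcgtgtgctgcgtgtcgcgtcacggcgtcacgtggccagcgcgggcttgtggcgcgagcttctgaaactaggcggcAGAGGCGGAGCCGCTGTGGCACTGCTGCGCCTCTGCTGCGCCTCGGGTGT
MBNL2: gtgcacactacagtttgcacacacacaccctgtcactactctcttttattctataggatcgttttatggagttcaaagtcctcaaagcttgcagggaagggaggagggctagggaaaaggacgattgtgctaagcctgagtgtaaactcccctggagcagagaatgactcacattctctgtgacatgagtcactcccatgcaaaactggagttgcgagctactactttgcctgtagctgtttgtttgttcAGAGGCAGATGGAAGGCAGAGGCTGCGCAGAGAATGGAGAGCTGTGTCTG
Neither window held any of the motifs searched on both strands: the GC box GGGCGG, the CCAAT box CCAAT, and the E2F-type letters TTTCCCGC, TTTGGCGC, TTTCGCGC and TTTGCCGC (matches of different motifs may overlap). The GC box was in 37 of the 53 member windows (69.8%), against 44.6% of 25745 RefSeq promoter windows and 59.1% of the 14569 windows of protein-coding genes. CCAAT was in 18 windows (34%), against 35.9% of all windows.

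An E2F-type match was in 8 of the 53 member windows (15.1%), against 3.36% of all windows and 4.53% of those of protein-coding genes. The median G and C content was 66% in the member windows, 58.3% in all windows and 63% in those of protein-coding genes. The part of base composition in the motif shares was not tested. The E2F-type matches are printed because RB1 and TFDP1, a partner of E2F factors in DNA binding, are themselves members. RB1 itself is among the 6 members without a window, with ZMYM2, SAP18, PARP4, CENPJ and ITM2B, and was not searched. Each stretch runs 5′ to 3′ on the strand of its gene with 20 bases on either side, and capitals mark the match. RFC3 lies on the plus strand (chr13:33818074-33818121), as do TPP2 (chr13:102596987-102597034), TFDP1 (chr13:113584613-113584660) and CDC16 (chr13:114234803-114234850). KATNAL1 (chr13:30307754-30307801), DIS3 (chr13:72782006-72782053 and chr13:72781935-72781982), ARGLU1 (chr13:106568150-106568197) and IRS2 (chr13:109786770-109786817) lie on the minus strand.
KATNAL1: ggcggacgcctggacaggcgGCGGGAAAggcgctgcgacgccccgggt
RFC3: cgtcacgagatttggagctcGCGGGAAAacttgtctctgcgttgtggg
DIS3, upstream: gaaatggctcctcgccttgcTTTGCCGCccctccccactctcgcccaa
DIS3, downstream: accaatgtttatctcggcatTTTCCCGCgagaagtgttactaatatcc
TPP2: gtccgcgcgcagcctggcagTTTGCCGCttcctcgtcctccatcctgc
ARGLU1: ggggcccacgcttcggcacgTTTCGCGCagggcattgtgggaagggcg
IRS2: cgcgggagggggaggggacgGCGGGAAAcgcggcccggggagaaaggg
TFDP1: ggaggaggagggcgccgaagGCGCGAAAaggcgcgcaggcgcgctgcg
CDC16: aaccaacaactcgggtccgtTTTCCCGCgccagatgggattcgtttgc
The 8 genes with a match had log2 fold changes from 0.28 (CDC16) to 0.96 (RFC3) in LM2 against Par, within the range of the other members. A match says only that these letters are present in the window.

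Levels are given as CPM (counts scaled to a library total of 1000000 with TMM factors), and fold changes as log2 fold changes from one model over all 9 libraries. The 3 libraries numbered 1 stood apart in every line. Replicate 1 minus the mean of the other 2 libraries of its line ran with the G and C content of the transcript, with a Spearman correlation across 12989 genes of 0.69 in Par, 0.77 in LM2 and 0.81 in BrM2. The log2 fold changes themselves ran with this content over the same genes. Their Spearman correlation was −0.26 for LM2 against Par, −0.03 for BrM2 against Par and 0.21 for BrM2 against LM2. Genes are not independent replicates, and these values describe the libraries. The members are AT-rich (median 40.9% G or C, against 47.6% for all genes tested), and the median of their levels was lowest in the replicate 1 library of each line. Same-numbered libraries deviated from their line means together, so each comparison is also given with the replicate number as a block.

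Levels of the members were higher in LM2 than in Par for 56 of the 58 genes tested. Their median log2 fold change was 0.57 (1.49-fold, with quartiles of 0.39 and 0.70), whereas the median of all 13055 genes was 0.01. The other 171 chromosome 13 genes tested, which were not listed as members, had a median of 0.52, with 141 of them higher. Chromosome 13 was picked for this shift in the same libraries. The values of its other genes and of its windows in LM2 are therefore also a description and no independent support. In bulk RNA, a change in every cell and a change in some of the cells cannot be told apart.

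**Figure D1:**
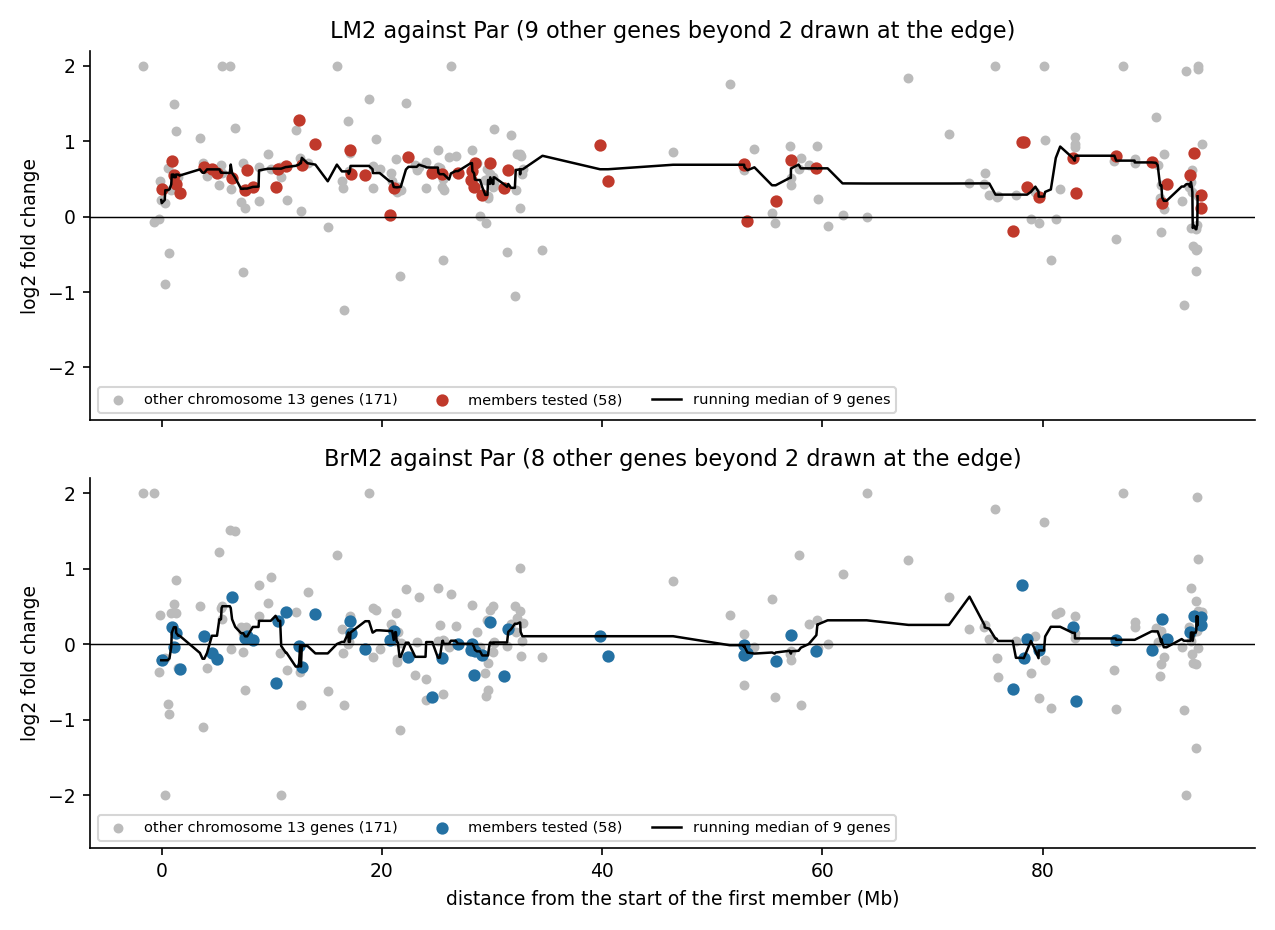
Log2 fold change of chromosome 13 genes against Par (y axis) by distance in Mb from the start of the first member (x axis), for LM2 above and BrM2 below. Colored points are the 58 members tested, gray points the 171 other genes, and the line is the running median of 9 genes, which lies above 0 over most of the arm in LM2 (all genes of the chromosome, median 0.56) and near 0 in BrM2 (median 0.06).

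By library, the median of the members' log2 CPM minus the mean of the Par libraries was −0.31, 0.08 and 0.24 in Par replicates 1, 2 and 3. The corresponding values in LM2 were −0.09, 0.73 and 0.79, and in BrM2 −0.54, 0.36 and 0.19. LM2 replicates 2 and 3 lay above every other library, and LM2 replicate 1 lay above the replicate 1 libraries of Par and BrM2 but below Par replicates 2 and 3. Compared between libraries of the same number, the median log2 ratio of LM2 to Par was 0.42, 0.59 and 0.56 (0.52 ± 0.09, SD, n = 3), and 51, 56 and 56 of the 58 members were higher. The ratio was above 0 at all 3 numbers for 50 members. The other chromosome 13 genes gave 0.42, 0.57 and 0.51, and all genes tested gave −0.05, 0.00 and 0.01.

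**Figure D2:**
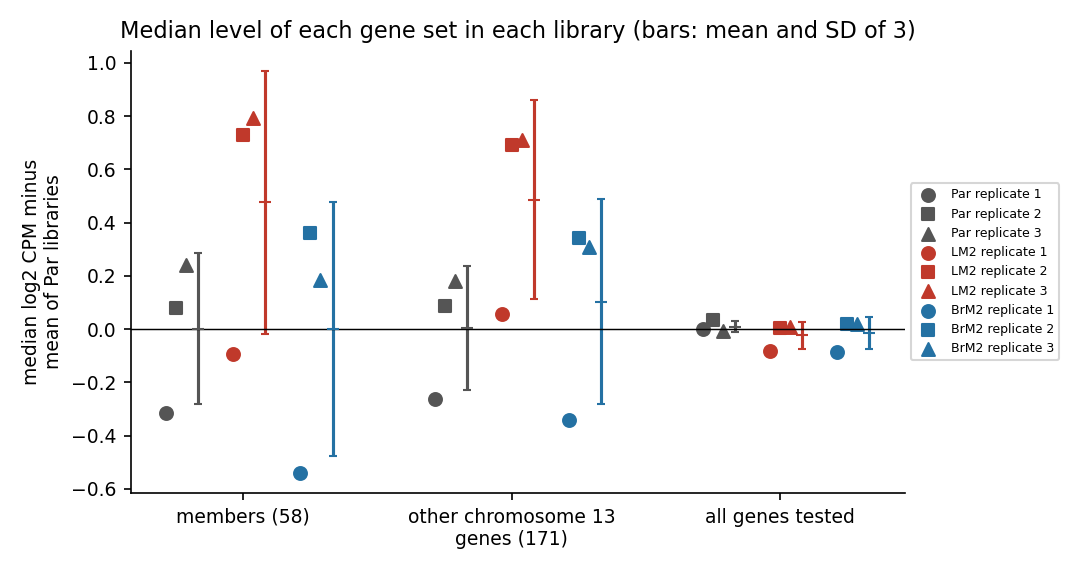
Median of log2 CPM minus the mean of the 3 Par libraries (y axis) for the members, the other chromosome 13 genes and all genes tested, by library (circle, square and triangle for replicates 1, 2 and 3), with bars for the mean and SD of the 3 libraries of a line. In both chromosome 13 sets, LM2 replicates 2 and 3 sit highest (0.73 and 0.79 for the members), and the replicate 1 library sits lowest in each line.

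With the replicate block, the median log2 fold change of the members in LM2 against Par was 0.55, and with the block and a correction for G and C content it was 0.49, with 55 of 58 above 0. For scale, a ratio of 3 to 2 is 0.585 and a ratio of 4 to 3 is 0.415 on the log2 scale. Without the block, 6 members passed an adjusted p of 0.05 as higher in LM2 (TSC22D1, TPT1, IPO5, FARP1, IRS2 and TFDP1), where 4.17% of all genes did. With the block 40 did, where 15.5% of all genes did. All 3 LM2 libraries lay above all 3 Par libraries for 17 members, as for 11.8% of all genes. These counts follow from how the members were selected and are no evidence about them. The direction in LM2 against Par turned for 6 members when 1 library was left out. They were ZMYM2 (without LM2 replicate 3), KLF5 (Par replicate 2), LMO7 (Par replicate 1), FOXO1 (Par replicate 1 or 2, or LM2 replicate 3), MBNL2 (Par replicate 3 or LM2 replicate 1) and UPF3A (Par replicate 1 or LM2 replicate 2).

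The shift was spread over the arm. In windows of 10 Mb (GRCh38), the members' median log2 fold change in LM2 against Par ranged from 0.36 to 0.75. All chromosome 13 genes of the window from 20 to 30 Mb had a median of 0.56 (39 genes), that from 40 to 50 Mb had 0.52 (49 genes), and that from 100 to 110 Mb had 0.75 (16 genes). The lowest were the window from 80 to 90 Mb, with a median of 0.01 over 4 genes and no member, and those at both ends, with 0.29 over 6 genes from 10 to 20 Mb and 0.28 over 31 genes from 110 Mb on. The last window is also the richest in G and C (median 52.1%). Corrected for G and C content with the block, its median was 0.31, that of the first window 0.16, and those of the windows from 20 to 80 Mb between 0.44 and 0.55.

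Over all 22 autosomes and the X chromosome, chromosome 13 had the highest median log2 fold change in LM2 against Par, 0.56 over 229 genes. Chromosome 15 followed with 0.26 and chromosome 9 with 0.14, and the lowest was chromosome 7 with −0.31. Chromosome 13 remained first with the block and the correction for G and C content (0.46). The chromosome was picked for this shift, so its rank in LM2 is a description. In BrM2 against Par its median was 0.06, between −0.37 for chromosome 9 and 0.36 for chromosome 18.

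**Figure D3:**
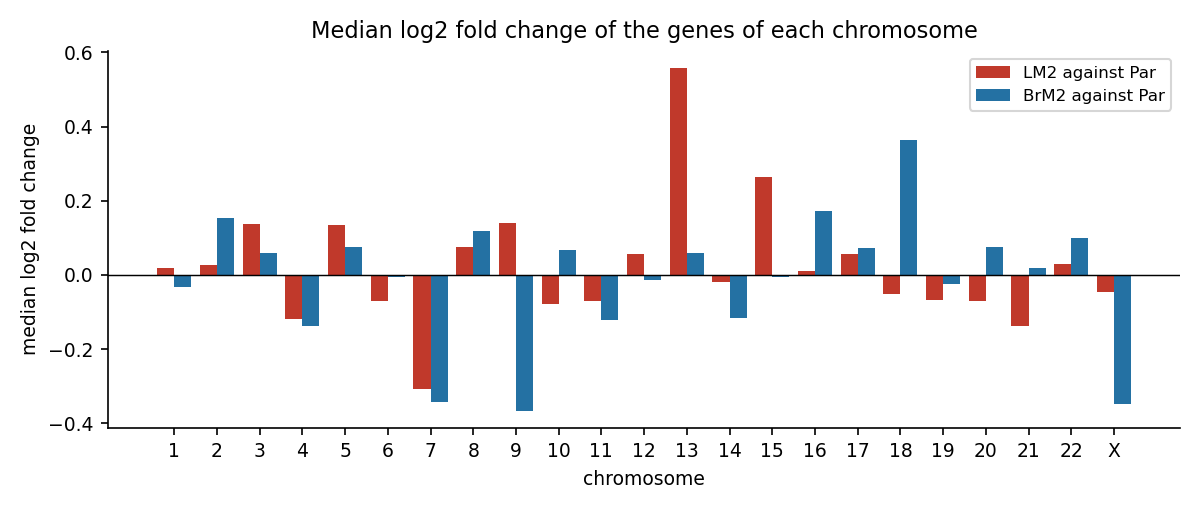
Median log2 fold change against Par (y axis) of the genes tested on each chromosome (x axis), for LM2 and BrM2. Chromosome 13 has the highest bar in LM2 (0.56), and its bar in BrM2 is 0.06.

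In BrM2 the levels of the members lay on both sides of those in Par. Of the 58 members, 30 were higher and 28 lower in BrM2 than in Par, with a median log2 fold change of 0.01. The direction turned for 32 of the 58 when 1 library was left out. This comparison shares its Par libraries with the one that chose the members. By the quasi-likelihood test of edgeR, with p-values adjusted by Benjamini-Hochberg over all genes, 1 member rose (IPO5) and 1 fell (TSC22D1), where 6.25% of all genes rose and 7.02% fell. With the replicate block 5 were called higher and 7 lower, against 19.5% and 23.2% of all genes. All BrM2 libraries lay above all Par libraries for 3 members (15.2% of all genes) and below them for 3 (16.1% of all genes). Within the replicate numbers the median ratio of BrM2 to Par was −0.27, 0.20 and −0.10 (−0.06 ± 0.24, SD, n = 3).

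Set against LM2, the members were lower in BrM2 for 53 of 58 genes, with a median log2 fold change of −0.56. With the block and the correction for G and C content the median was −0.45. The LM2 libraries chose the members, so this is again a description. At an adjusted p of 0.05, 5 members were called lower (3.99% of all genes), and 43 with the block (19.7%). All 3 BrM2 libraries lay below all 3 LM2 libraries for 12 members (11.7% of all genes). The median ratio was −0.62, −0.40 and −0.66 within replicate numbers 1, 2 and 3.

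**Figure D4:**
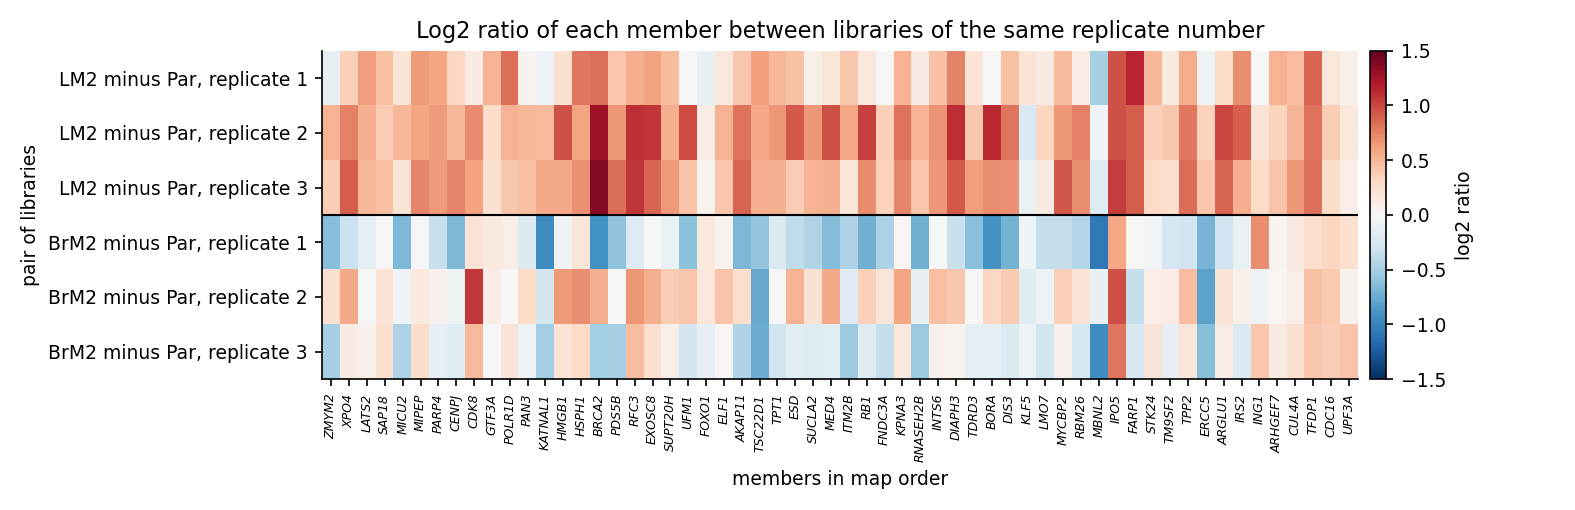
Log2 ratio against Par (color) of each of the 58 members tested, in map order (x axis), between libraries of the same replicate number (y axis, LM2 above the line and BrM2 below). The LM2 rows are mostly red (51, 56 and 56 of 58 genes above 0), and the BrM2 rows are mixed (18, 43 and 26 above 0).

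Genes of the cell cycle and genome maintenance were the largest group of members (15 genes). All 15 had a log2 fold change above 0 in LM2 against Par, with a median of 0.63. BRCA2 (chr13:32315077-32400268) had 8.14, 28.2 and 34.2 CPM in Par, 14.5, 67.9 and 89.2 in LM2, and 4.28, 41 and 24 in BrM2. The replicate 1 library was the lowest of each line, and the LM2 and Par values overlapped. Its log2 fold change in LM2 against Par was 1.28 ± 0.87 (SE), the highest of all members, and ranged from 0.81 to 1.74 when 1 library was left out.

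RB1 (chr13:48303751-48481890) had 49.5, 65.3 and 90.5 CPM in Par, 55.7, 133 and 148 in LM2, and 29.9, 83.4 and 78.8 in BrM2. LM2 was above Par at each replicate number, although the lines overlapped. The log2 fold change of RB1 was 0.71 ± 0.47 in LM2 against Par and −0.09 ± 0.47 in BrM2 against Par, where the adjusted p was 0.95 (edgeR).

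TFDP1, the DP1 partner of E2F factors (chr13:113584688-113641473), had 253, 220 and 223 CPM in Par, 464, 387 and 396 in LM2, and 303, 299 and 296 in BrM2. The 3 lines did not overlap, with LM2 the highest and Par the lowest. In LM2 it was 1.79-fold the level of Par (log2 fold change 0.84 ± 0.15). In BrM2 the log2 fold change was 0.37 ± 0.15, with an adjusted p of 0.17 by edgeR and of 0.015 with the replicate block.

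RFC3, a subunit of the clamp loader of DNA replication, had 34.2, 44.7 and 49.7 CPM in Par and 50.1, 95.3 and 105 in LM2. DIAPH3, a formin that nucleates actin filaments, had 61.5, 84.0 and 99.5 CPM in Par and 103, 182 and 188 in LM2. Both were higher in every LM2 library than in any Par library, with log2 fold changes of 0.96 ± 0.38 and 0.95 ± 0.36. In BrM2 against Par they were 0.40 ± 0.38 and 0.11 ± 0.36.

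CUL4A, the scaffold of a ubiquitin ligase, had 95.5, 115 and 117 CPM in Par, 131, 164 and 184 in LM2, and 105, 124 and 137 in BrM2. LATS2, a kinase of the Hippo pathway, had 62.5, 61.8 and 55.3 CPM in Par, 96.6, 89.7 and 78.0 in LM2, and 57.1, 60.4 and 57.9 in BrM2. For both genes the LM2 libraries lay above those of Par, by 0.55 ± 0.19 for CUL4A and 0.56 ± 0.16 for LATS2 on the log2 scale. LATS2 differed little between BrM2 and Par, −0.03 ± 0.16. PARP4, whose product belongs to the vault particle, was likewise without overlap (0.63 ± 0.21 in LM2), though 9.91% of its transcript is shared with pseudogenes and its counts are uncertain to that extent.

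PDS5B, a cohesin regulator, CENPJ, a centriole protein, and BORA, an activator of Aurora A, had log2 fold changes of 0.69, 0.58 and 0.69 in LM2, with overlap between the lines. BORA shares 37% of its exon bases with DIS3 on the opposite strand. RNASEH2B, a subunit of the nuclease that removes RNA from DNA, was at 0.38 ± 0.28 in LM2 and −0.42 ± 0.28 in BrM2, where its adjusted p was 0.43 without and 0.024 with the block (edgeR). CDC16, a subunit of the anaphase-promoting complex near the end of the arm, had 64.1, 82.1 and 85.5 CPM in Par, 71.8, 107 and 103 in LM2, and 79.9, 108 and 110 in BrM2. LM2 and BrM2 overlapped for CDC16, at 0.28 ± 0.23 and 0.36 ± 0.23 against Par, and the BrM2 value had an adjusted p of 0.4 without and 0.019 with the block (edgeR). ING1, a chromatin reader, was among the 5 lowest members in LM2 (0.18 ± 0.26).

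ERCC5, a nuclease of nucleotide excision repair, was the least expressed member that was tested, at 0.52 to 2.37 CPM. It had 7 counts in the lowest library and 59 in the highest. The filter required a normalized count above 47.1 in only 1 library. In ERCC5, 33% of the exon bases lie in a readthrough transcript on the same strand. Its log2 fold change was 0.31 ± 0.46 in LM2 and −0.75 ± 0.48 in BrM2 against Par, with an adjusted p of 0.043 for BrM2 with the block and 0.41 without (edgeR).

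The 11 transcription genes had a median of 0.52 in LM2 against Par (10 above 0) and 0.09 in BrM2 (8 above 0). Of those 8 in BrM2, 5 turned when 1 library was left out. TSC22D1, a leucine zipper protein of the TGF-beta response (chr13:44432143-44577344), had 191, 200 and 192 CPM in Par, 292, 300 and 281 in LM2, and 127, 119 and 115 in BrM2. The 3 lines were fully apart, with LM2 above Par and BrM2 below it. The log2 fold changes were 0.58 ± 0.14 in LM2 and −0.69 ± 0.14 in BrM2. TSC22D1 fell in BrM2 with an adjusted p of 0.012 (edgeR), and 0.00034 with the block. The call was lost without Par replicate 2 (adjusted p = 0.059), BrM2 replicate 2 (0.067) or BrM2 replicate 3 (0.072), at log2 fold changes of −0.66 to −0.68.

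CDK8 (chr13:26254129-26405238) and MED4 both belong to the Mediator complex. CDK8 had 13, 13.6 and 17.2 CPM in Par, 14.1, 22.2 and 26.3 in LM2, and 15.1, 28.6 and 24.1 in BrM2. Its values in LM2 and BrM2 overlapped (0.52 ± 0.31 and 0.63 ± 0.31 against Par), and the adjusted p in BrM2 was 0.26 without and 0.018 with the block (edgeR). MED4 had 15.9, 16.8 and 19.6 CPM in Par, 18.1, 32.7 and 28.7 in LM2, and 10.1, 24.9 and 17.4 in BrM2, so that its log2 fold change was 0.60 ± 0.34 in LM2 and 0.01 ± 0.34 in BrM2.

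HMGB1, an abundant DNA-bending chromatin protein, had 246, 311 and 361 CPM in Par, 288, 604 and 535 in LM2, and 237, 486 and 416 in BrM2. Its log2 fold change was 0.64 ± 0.34 in LM2 and 0.31 ± 0.34 in BrM2, and 12.2% of its transcript is shared with pseudogenes. POLR1D, a subunit of RNA polymerases I and III, had 54.5, 43.8 and 43.2 CPM in Par and 96.6, 62.8 and 57.2 in LM2. Its LM2 libraries all lay above those of Par (0.61 ± 0.24). ZMYM2, the first member on the map, was at 0.36 ± 0.66 in LM2 and turned to −0.05 without LM2 replicate 3. GTF3A (TFIIIA), ELF1, an ETS factor, and SUPT20H, a subunit of the SAGA complex, were at 0.36, 0.39 and 0.57 in LM2.

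KLF5 and FOXO1 did not follow the arm. KLF5, a zinc finger factor of epithelial cells, had 26.9, 39.7 and 35.6 CPM in Par, 31.1, 33.8 and 33.2 in LM2, and 25.8, 35.1 and 33.7 in BrM2. FOXO1, a forkhead factor under insulin control, had 7.2, 6.39 and 8.88 CPM in Par, 6.66, 6.89 and 9.19 in LM2, and 8.05, 7.2 and 8.15 in BrM2. Both overlapped in all lines, at −0.06 ± 0.21 (KLF5) and 0.02 ± 0.22 (FOXO1) in LM2 against Par. The value of FOXO1 was −0.04 with the correction for G and C content, and 22.7% of its exon bases lie in another gene model on the same strand.

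All 3 nuclear transport genes were above 0 in both comparisons with Par, though XPO4 turned in BrM2 against Par without BrM2 replicate 2. IPO5, an importin (chr13:97953675-98024296), had 302, 300 and 308 CPM in Par, 585, 583 and 636 in LM2, and 450, 586 and 539 in BrM2. All LM2 and all BrM2 libraries lay above those of Par, and LM2 and BrM2 overlapped. The level was 1.98-fold that of Par in LM2 (log2 fold change 0.99 ± 0.16) and 1.73-fold in BrM2 (0.79 ± 0.16). IPO5 rose in BrM2 with an adjusted p of 0.011 (edgeR), and 0.00032 with the block. The call was lost without Par replicate 2 (adjusted p = 0.056), BrM2 replicate 2 (0.057) or BrM2 replicate 3 (0.054), at log2 fold changes of 0.71 to 0.78.

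XPO4, an exportin and the second member on the map, had 30.2, 48.4 and 49.4 CPM in Par, 38.5, 82.0 and 92.9 in LM2, and 24.1, 71.7 and 53.6 in BrM2. KPNA3, an importin alpha, had 51.1, 64.6 and 76.8 CPM in Par and 73.2, 113 and 128 in LM2. LM2 was above Par at each replicate number for both, with log2 fold changes of 0.74 ± 0.45 and 0.71 ± 0.30, and 0.22 ± 0.44 and 0.30 ± 0.30 in BrM2.

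The 10 genes of RNA processing and decay had a median of 0.54 in LM2 (9 above 0) and 0.05 in BrM2. EXOSC8, a subunit of the RNA exosome, had 32.4, 42.4 and 43.2 CPM in Par, 49.4, 89.7 and 79.3 in LM2, and 32.5, 62.2 and 51.1 in BrM2. DIS3, a catalytic subunit of the exosome, had 25.8, 57.4 and 69.6 CPM in Par, 35.4, 100 and 112 in LM2, and 15.7, 75.3 and 60.2 in BrM2. Only for EXOSC8, of these 2, did all LM2 libraries lie above those of Par (0.89 ± 0.30, against 0.70 ± 0.62 for DIS3), and EXOSC8 shares 16.3% of its exon bases with SUPT20H on the opposite strand.

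INTS6, a subunit of Integrator, had 17.4, 27.9 and 36.3 CPM in Par, 23.8, 44.6 and 57.2 in LM2, and 17.6, 38.3 and 37.9 in BrM2. SAP18, of the exon junction and Sin3 complexes, had 123, 116 and 103 CPM in Par, 169, 151 and 141 in LM2, and 125, 133 and 121 in BrM2. SAP18 was without overlap between LM2 and Par at a difference of 0.43 ± 0.16. ARGLU1, RBM26, TDRD3 and PAN3 were at 0.81, 0.64, 0.47 and 0.39 in LM2. UPF3A, a factor of nonsense-mediated decay and the last member on the map, had 30.2, 49.9 and 47 CPM in Par, 32.2, 55.8 and 50.2 in LM2, and 35.7, 52.2 and 63.3 in BrM2. It was at 0.12 ± 0.31 in LM2, and 17.3% of its transcript is shared with pseudogenes.

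MBNL2, a splicing regulator of the muscleblind family (chr13:97141834-97394120), was the lowest member in LM2. It had 30.7, 64.8 and 83.1 CPM in Par, 21.8, 62.6 and 72.5 in LM2, and 14.5, 60.1 and 43.4 in BrM2. Both metastatic lines were below Par at every replicate number. The log2 fold change was −0.19 ± 0.60 in LM2 and −0.60 ± 0.60 in BrM2, where the adjusted p was 0.64 without and 0.0095 with the block (edgeR).

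The 4 genes of mitochondria and metabolism had a median of 0.53 in LM2 and −0.03 in BrM2. SUCLA2, a subunit of succinyl-CoA synthetase, had 19.2, 32.9 and 40.5 CPM in Par, 20.4, 51.8 and 58.1 in LM2, and 13.9, 38.5 and 35.4 in BrM2. ESD, esterase D, was without overlap between LM2 (69.3, 83.0 and 78.0 CPM) and Par (51.1, 43.7 and 60.0 CPM), at 0.57 ± 0.22. MIPEP, a peptidase of mitochondrial import, was at 0.66 ± 0.28 in LM2. MICU2, a regulator of the mitochondrial calcium uniporter, was at 0.32 ± 0.45 in LM2 and −0.33 ± 0.46 in BrM2, with an adjusted p of 0.75 in BrM2 without and 0.037 with the block (edgeR).

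The 11 genes of signalling, cytoskeleton and membranes were all above 0 in LM2 (median 0.40), and 9 of them were below 0 in BrM2 (median −0.17), of which 4 turned when 1 library was left out. FARP1, a guanine nucleotide exchange factor with a FERM domain (chr13:98142589-98455176), had 42, 42.4 and 42.3 CPM in Par, 93.2, 79.9 and 79.7 in LM2, and 42.7, 33.1 and 35.8 in BrM2. LM2 was apart from both other lines, at 0.996 ± 0.17 (1.99-fold) against Par. FARP1 shares 22.8% of its exon bases with genes on the opposite strand, among them STK24.

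TPT1, the translationally controlled tumor protein, had 336, 304 and 360 CPM in Par, 474, 480 and 522 in LM2, and 288, 301 and 291 in BrM2. ITM2B, a membrane protein of the BRICHOS family, had 122, 105 and 132 CPM in Par, 163, 157 and 150 in LM2, and 87.8, 91.4 and 90.6 in BrM2. For both, every LM2 library was above and every BrM2 library below the Par libraries. The log2 fold changes in BrM2 were −0.18 ± 0.15 for TPT1 and −0.41 ± 0.16 for ITM2B, and neither passed the test (adjusted p = 0.53 and 0.14, edgeR), whereas ITM2B had an adjusted p of 0.017 with the block.

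IRS2, an adaptor of the insulin receptor and the member richest in G and C (58.7%), had 20.5, 20.9 and 22.5 CPM in Par, 33.3, 39.2 and 32.7 in LM2, and 19.2, 22.1 and 19.3 in BrM2. The LM2 libraries were all above the others (0.72 ± 0.17 against Par). ARHGEF7, an exchange factor for Rac, had 57, 57.8 and 57.1 CPM in Par, 82.0, 72.7 and 76.9 in LM2, and 58.7, 59.1 and 62.5 in BrM2. ARHGEF7 thus had a small difference without overlap in LM2 (0.43 ± 0.15) and a smaller one in BrM2 (0.07 ± 0.15).

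AKAP11, KATNAL1, STK24, FNDC3A, TM9SF2 and LMO7 were at 0.79, 0.40, 0.40, 0.29, 0.27 and 0.20 in LM2, all with overlap between LM2 and Par. KATNAL1, a katanin-like microtubule severing subunit, was at −0.51 ± 0.41 in BrM2, with an adjusted p of 0.52 without and 0.012 with the block (edgeR). STK24 shares 63.5% of its exon bases with FARP1 and an antisense gene, so its counts are uncertain.

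Of the 5 genes of protein folding and turnover, 4 were tested, with a median of 0.71 in LM2 and 0.18 in BrM2. HSPH1, a heat shock protein of the HSP110 family, had 83.0, 161 and 221 CPM in Par, 144, 242 and 357 in LM2, and 94.2, 261 and 272 in BrM2. It was above Par at each number in both lines, at 0.67 ± 0.50 and 0.43 ± 0.50, and its adjusted p in BrM2 was 0.69 without and 0.036 with the block (edgeR). TPP2, MYCBP2 and UFM1 were at 0.78, 0.74 and 0.56 in LM2. UCHL3 held 4 to 18 counts in a library, and 30.7% of its exon bases lie in a readthrough model on the same strand.

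**Figure D5:**
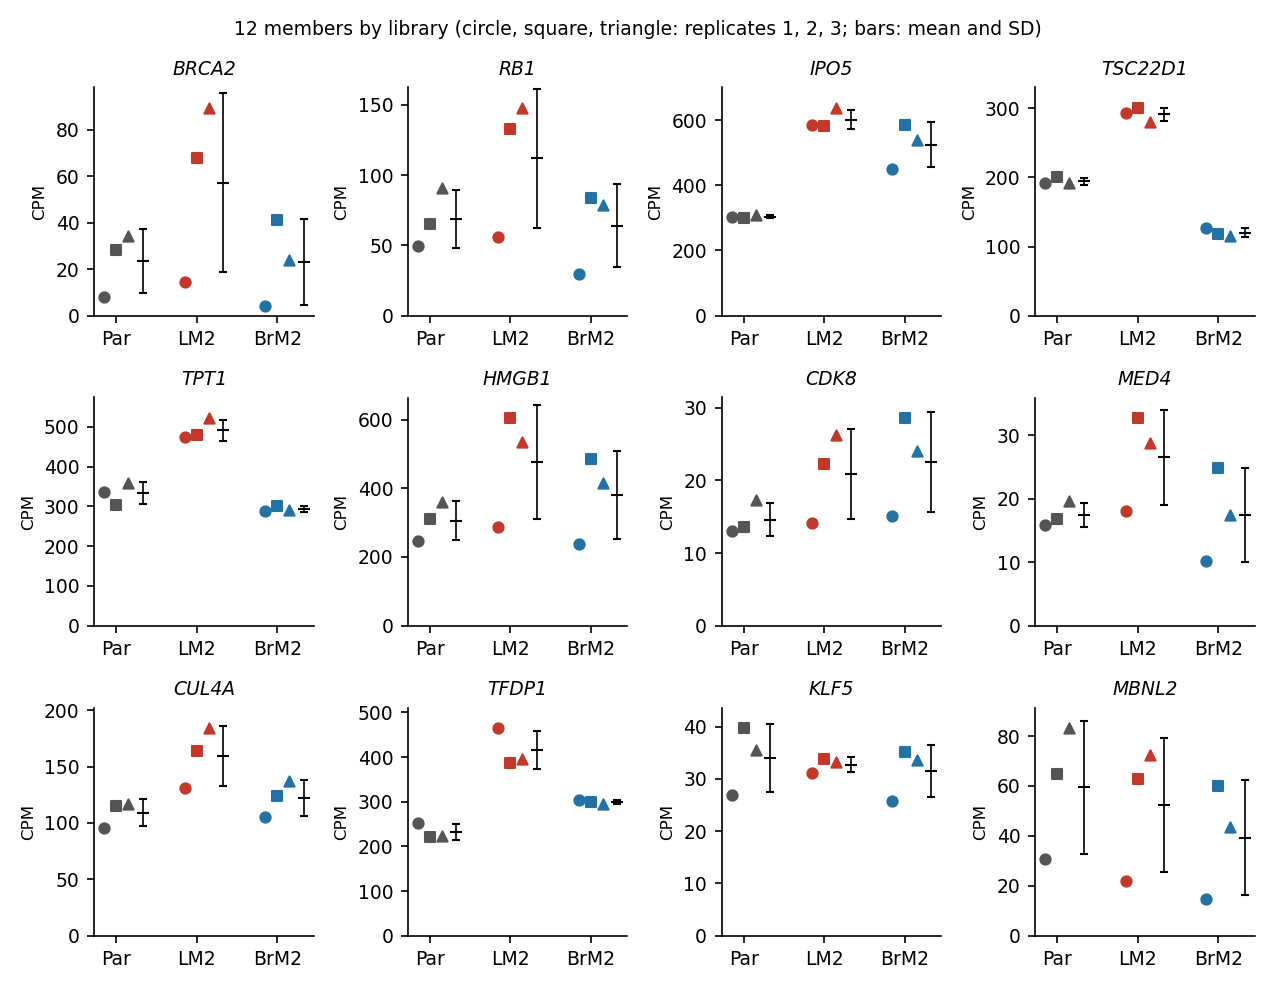
CPM (y axis, from 0) of 12 members in the 9 libraries by line (x axis), with the replicate number as the symbol and bars for the mean and SD of 3 libraries. LM2 lies apart from Par for IPO5, TSC22D1, TPT1, CUL4A and TFDP1, whereas BRCA2, RB1, HMGB1, CDK8 and MED4 overlap, with replicate 1 the lowest LM2 library, and KLF5 and MBNL2 are not higher in LM2.

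Among the chromosome 13 genes that are not members, the largest differences in LM2 against Par were in single genes and far above the arm-wide shift. LCP1, the actin bundler L-plastin, had 1.94, 1.26 and 3.18 CPM in Par, 140, 136 and 147 in LM2, and 3.77, 3.22 and 3.26 in BrM2. DCLK1, a doublecortin-like kinase, had 1.68, 2.08 and 2.87 CPM in Par, 42.8, 103 and 107 in LM2, and 4.06, 5.92 and 5.13 in BrM2. The log2 fold changes in LM2 were 6.04 ± 0.36 for LCP1 and 5.24 ± 0.43 for DCLK1, and 4.07 ± 0.36 for the noncoding LINC00565. At the other end, CCNA1, ATP11A and ATP7B were at −1.23 ± 0.19, −1.17 ± 0.23 and −1.06 ± 0.23, each with every LM2 library below every Par library. ATP11A, a phospholipid flippase gene close to the end of the arm, had 75.9, 99.4 and 82.8 CPM in Par and 29, 41.5 and 44 in LM2.

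The partners listed were subunits of complexes that hold a member, taken only from other chromosomes, and had smaller log2 fold changes as a group. The members were selected on their LM2 values, so a gap between them and the partners follows in part from that choice. The 85 partners had a median of 0.11 in LM2 against Par (56 above 0), beside 0.01 for all genes and 0.57 for the members. The 27 other Mediator subunits were at a median of 0.09, beside 0.60 for MED4 and 0.52 for CDK8. The 9 other exosome subunits were at 0.01, beside 0.89 for EXOSC8 and 0.70 for DIS3. Integrator (13 genes) was at 0.23, the anaphase-promoting complex (13 genes) at 0.13, replication factor C (4 genes) at 0.21, cohesin (9 genes) at 0.10, and the subunits shared by RNA polymerases I and III (6 genes) at 0.04. RNase H2, with 2 partners, was at 0.37. For succinyl-CoA synthetase the 2 listed genes went opposite ways, SUCLG1 at 0.59 ± 0.27 and SUCLG2 at −0.41 ± 0.28, beside 0.49 for SUCLA2. SUCLG2 is an alternative to SUCLA2 in that enzyme, though it is counted among the 85. By edgeR's test with adjustment over all genes, none of the 85 partners rose and 1 fell in LM2, MED14 (−1.33, adjusted p = 0.011), and 7 had an unadjusted p under 0.05 in either direction. Over all genes 4.17% rose and 4.52% fell, and 2640 of the 13055 had an unadjusted p under 0.05 in either direction. With the block 12 partners were called higher and 8 lower, where 15.5% and 19.1% of all genes were. DESeq2 called 2 higher and 1 lower, against 7.27% and 7.23% of all genes.

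In BrM2 the 85 partners had a median of 0.11, with 3 that rose (MED30, RFC5 and POLR2K) and 2 that fell (MED14 and SMC1A) by edgeR's test, where 6.25% and 7.02% of all genes did. With the block 18 were called higher and 10 lower (19.5% and 23.2% of all genes), and DESeq2 called 6 higher and 2 lower (9.73% and 9.57% of all genes).

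The 22 E2F targets fixed as a list, genes of DNA replication and the S phase that RB1 restrains, had a median of 0.12 in LM2 and 0.11 in BrM2. With the block and the correction for G and C content these medians were 0.26 (18 of 22 above 0) and 0.25, beside 0.02 and 0.01 for all genes. None passed edgeR's test in LM2 (5 at an unadjusted p under 0.05, 5 called higher and 1 lower with the block, and 5 called higher by DESeq2), where the shares of all genes are those given for the partners. In BrM2, CDC6 (0.85, adjusted p = 0.005) and RRM2 (1.04, adjusted p = 0.0052) rose by edgeR's test, as 6.25% of all genes did. In BrM2, 7 were called higher and 1 lower with the block (19.5% and 23.2% of all genes), and 3 were called higher by DESeq2 (9.73%).

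Of the 6 markers listed as high in MDA-MB-231, 5 were at 269 CPM or more in every library, among them VIM at 636 to 1876 CPM and CD44 at 499 to 849 CPM over the 9 libraries, while ESR1, PGR and CDH1 stayed under 2 CPM and GATA3 was at 3.83 to 15.5 CPM. SPARC, the other of those 6, went against the list in Par and BrM2, at 2.0 to 2.32 CPM in Par and 12.8 to 32 CPM in BrM2, against 366 to 653 CPM in LM2. Human markers of other tissues were near 0 for lung (3 of 3 genes with at most 3 counts in any library) and for blood (CD3E at most 1 count, PTPRC at most 6). Of the brain markers, AQP4 had at most 1 count, whereas GFAP (5.52 to 21.3 CPM) and MBP (99 to 176 CPM) were present in all 3 lines, and of the endothelial markers CDH5 had at most 4 counts and PECAM1 was at 2.08 to 7.19 CPM.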

How the data were processed

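RNA was isolated from 3 libraries each of Par, LM2 and BrM2 cells, and TruSeq stranded mRNA libraries were sequenced in pairs. The authors used STAR 2.7.0 to align reads to hg38 and to count those of each gene; the strand counted is not stated. The deposited counts were used as raw counts. A second deposited table holds the authors' DESeq2 log2 fold changes and adjusted p-values against Par and was not used. Members and lists were chosen with earlier results of these data known.

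In the table, 3 repeated identifiers with identical counts were kept once. A Jaccard-based filter on normalized counts (largest value above 47.1) left 13055 genes. Fold changes and adjusted p-values are from edgeR 4.0.16 quasi-likelihood fits over all 9 libraries with TMM factors and no block; log2 CPM used a prior count of 2. Same-numbered libraries correlated in their deviations from line means (0.23 to 0.90 in 9 pairs), so the replicate number pairs them as a hint from the data; the labels do not say what a number shares. By the paper's methods, the replicates of each line were taken at different passages. Transcript G and C content came from GENCODE v44 on GRCh37, and gene positions and promoters from RefSeq GRCh38.p14 (95.4% of genes tested had a position). Alternatives were DESeq2 1.42.0, other factors, other filters, left-out libraries, the block, and the block with a G and C correction (loess, span 0.5). The fits were also run on simulated counts with known changes. These held no replicate effect linked to G and C content, so they do not test the fits under the one seen here.

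Named members were the 5 highest and 5 lowest in LM2 against Par, those called in BrM2 against Par, the first and last 2 on the map, and 22 listed for their function; other members are given in brief. Outside the members, the 3 highest and 3 lowest chromosome 13 genes with at least 5 CPM in a line were named.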

Additional observations from a re-analysis of the deposited data

Results flagged for a closer look

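In 3 members, every LM2 library lay above and every BrM2 library lay below all Par libraries, as for 1.07% of all genes. TSC22D1 had a log2 fold change of 0.58 in LM2 and −0.69 in BrM2. TPT1 had 0.56 in LM2 and −0.18 in BrM2, where it passed neither test (adjusted p = 0.53 without and 0.2 with the block, edgeR). ITM2B had 0.39 in LM2 and −0.41 in BrM2, where it passed with the block alone (adjusted p = 0.14 without and 0.017 with it, edgeR). The difference between the comparisons was not tested, since both share the Par libraries and the LM2 values chose the members.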

How the results depend on the processing

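The median log2 fold change of the members in LM2 against Par kept its sign under every alternative, from 0.49 to 0.60 with other factors, filters, tools or the block, and from 0.42 (without LM2 replicate 3) to 0.74 (without LM2 replicate 1) with 1 library left out. The other chromosome 13 genes ranged from 0.41 to 0.68 in LM2 with 1 library left out and were at 0.43 with the replicate block and the G and C correction. In BrM2 against Par they ranged from 0.011 to 0.27, and the members from −0.15 to 0.23, with 1 library left out. In BrM2 against LM2 the members ranged from −0.79 (without BrM2 replicate 2) to −0.31 (without BrM2 replicate 1). The partners and E2F targets in LM2 together had a median of 0.12, which was 0.15 with relative log expression factors or DESeq2, 0.16 without replicate 3 of all lines, and 0.042 to 0.18 with 1 library left out.

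Counts of calls depended on the replicate block. With this pairing, members called higher in LM2 went from 6 to 40, those called in BrM2 against Par from 1 higher and 1 lower to 5 and 7, and those called lower in BrM2 against LM2 from 5 to 43. With the block and the G and C correction 46 members were called higher in LM2 and 1 lower, 11 and 10 in BrM2 against Par, and 48 lower in BrM2 against LM2, where all genes were called at 22.8% and 22.2%, 28.2% and 27.4%, and 24.8%. Without replicate 1 of all lines they were 46 in LM2, 8 higher and 3 lower in BrM2 against Par, and 34 (all genes 15.9%, 20.8% and 19.6%, and 15.7%). Without replicate 2 or replicate 3 of all lines all were 0, where 0.146% to 1.31% of all genes were called. With no filter they were 2 in LM2, 0 and 0, and 2 (all genes 1.95%, 3% and 3.36%, and 1.98%). DESeq2 called 13 in LM2 (7.27% of all genes) and 10 in BrM2 against LM2 (7.06%). Only the 2 lines compared gave 3 in LM2 (3.13%) and 2 in BrM2 against LM2 (2.08%). Leaving out 1 library gave 2 to 7 in LM2 (2.27% to 4.4% of all genes). It gave 0 to 1 in each direction in BrM2 against Par (3.63% to 7.68% of all genes higher and 3.49% to 8.56% lower). In BrM2 against LM2 it gave 2 to 6 (1.86% to 4.46% of all genes). For IPO5 and TSC22D1 in BrM2 against Par, the fit with no filter also ended the call (adjusted p = 0.069 and 0.14, edgeR). The cause of these changes was not tested. Counts of members in LM2 against Par and in BrM2 against LM2 follow from how the members were selected and are no evidence about them.

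ERCC5 and UCHL3 had few counts, 7 and 4 in the lowest library, and in all other members the lowest library held at least 58 counts. Whether low expression, depth or the overlap with same-strand gene models lowered the counts of ERCC5 and UCHL3 was not tested.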
